A study of Pyrus communis with 12 samples.

Results

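Fruit maturation on the tree was followed here through 6 genes that the study annotated as transcription factors: PCP007024 as a MADS factor, PCP005843 as APETALA2, PCP011929 and PCP036084 as squamosa binding proteins, and PCP007739 and PCP013432 as NAC factors. They were chosen by their identifiers, and are 6 of the 45217 genes in the deposited table. Pear flesh (Pyrus communis, cultivar 'Abate Fetel') was sampled at 4 harvesting stages, labelled as harvest weeks 1, 2, 3 and 4 and named H1, H2, H3 and H4, with 3 biological replicates at each. All 12 libraries came from fruit at harvest with no treatment named in the labels. According to the methods, the interval between H2 and H3 was longer than the first and the last interval, which had the same length. The study had picked these genes among those that differed between stages in the same libraries and whose stage means followed fruit firmness, so their calls and their gradual courses are not independent evidence.

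Pear is a climacteric fruit, in which a rise of ethylene goes with ripening and softening. In tomato, the species where ripening regulators are best known, members of the same 4 families act in this process. RIN, a MADS factor, and NOR, a NAC factor, are needed for normal ripening, and CNR, a squamosa promoter binding protein, is the gene behind a mutant whose fruit fails to ripen normally. AP2a, an APETALA2 factor, is known in tomato as a negative regulator of ripening and of ethylene production. No pear gene was matched to a named tomato gene here, and the family names are those given by the study.

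The table lists whole-number counts per gene and library. Library totals ranged from 7776419 to 10675582 counts, with the 3 highest totals at H4, and 3 counts in a library corresponded to 0.281 to 0.386 CPM of its total. CPM stands for counts brought to a common library size, and the levels below were also scaled by the TMM method of edgeR, which corrects for differences in library composition. A gene was tested if 3 or more libraries reached 1 CPM, which left 23155 genes, and all 6 factors were among them. Replicate 2 of H1, H3 and H4 stood apart: 64 to 66 genes were alone at least 4-fold above both other libraries of their stage in each of these 3, against 21 to 34 in the other 9 libraries. Each of the results that these 3 libraries changed is given with and without them, a setting chosen after seeing the data. The level of a gene cannot be compared with that of another, since no transcript lengths were used. The tissue label was not checked against marker genes, because the table holds identifiers without names.

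From H1 to H4, the MADS gene PCP007024 and the APETALA2 gene PCP005843 rose, while both squamosa binding protein genes and both NAC genes fell. The rises were 2.18-fold for the MADS gene and 1.25-fold for APETALA2, and the 4 falls lay between 1.92-fold for PCP011929 and 3.79-fold for PCP007739. These are 2 genes called higher, where 18.1% of all genes tested were called higher at H4, and 4 called lower, against 16.4% of all genes (edgeR quasi-likelihood test, Benjamini-Hochberg adjusted p under 0.05). The median size of the change over the 6 genes was 1.19 on the log2 scale, and over all genes tested it was 0.27. In CPM, the libraries of H1 and H4 did not overlap in any of the 6 genes, where 44.5% of all genes did not overlap. Of the 4 genes that fell, PCP007739 passed the filter only through libraries of H1 and H2. Its fall was in part set by how it entered the test, and it is included in these counts and in the median. Without the 3 replicate 2 libraries, 4 of the 6 were called, all but PCP036084 and PCP007739, where 7082 of all 22778 genes tested were called. In bulk flesh, a change in the share of a cell type and a change in the RNA of each cell cannot be told apart.

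**Figure D1:**
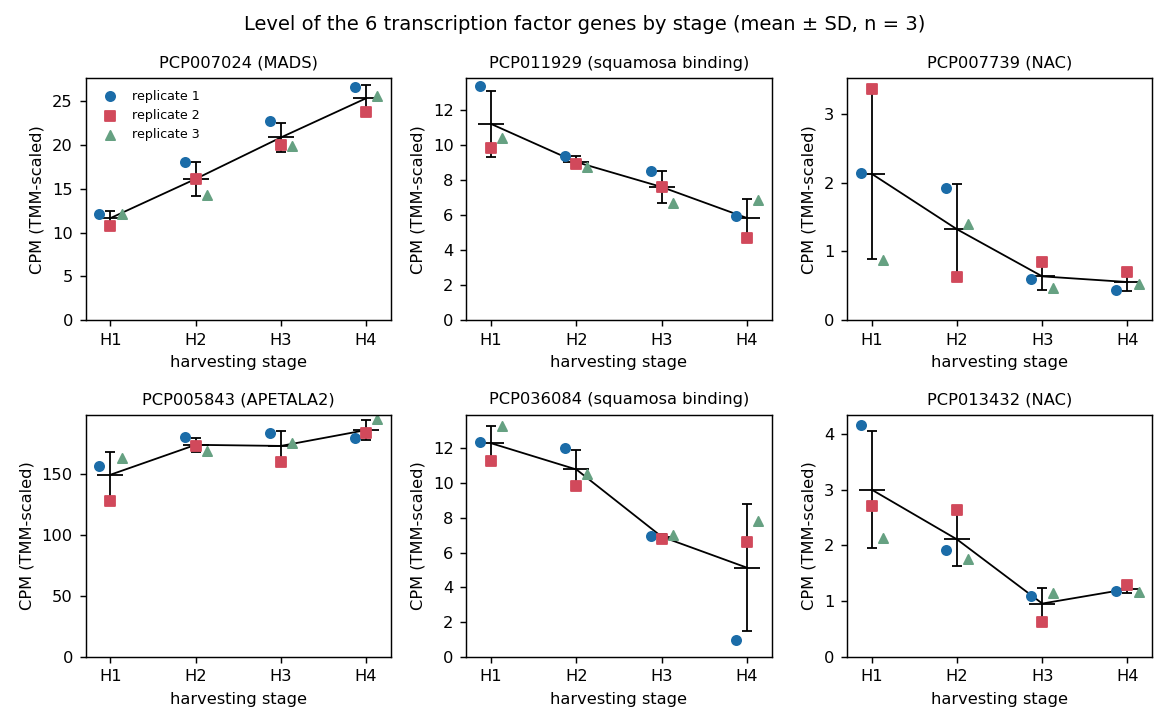
Level of each gene in CPM (TMM-scaled, vertical axis from 0) at the 4 harvesting stages, with 1 marker per library and the mean ± SD of 3 replicates in black. The H1 and H4 libraries do not overlap in any of the 6 panels, and 1 H4 library of PCP036084 lies at 0.971 CPM, far below the other two.

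The MADS gene PCP007024 had the steadiest course. It held 12.1, 10.7 and 12.1 CPM in the 3 replicates of H1, 18.1, 16.1 and 14.3 CPM at H2, 22.8, 19.96 and 19.9 CPM at H3, and 26.6, 23.8 and 25.7 CPM at H4. Each stage lay above the one before, with no overlap between the libraries of neighbouring stages. From H3 to H4, 39.0% of all genes did not overlap, and this share was not counted for the earlier steps. The change from H1 to H4 was 1.12 ± 0.10 on the log2 scale (standard error, n = 3 per stage, edgeR adjusted p = 3.92e-06).

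Of the single steps of this gene, only the first was called, with a log2 change of 0.47 ± 0.11 (edgeR adjusted p = 0.0188). The second step was 0.37 ± 0.10 (edgeR adjusted p = 0.0562) and the third 0.28 ± 0.10 (edgeR adjusted p = 0.0613). The H1 to H2 call was lost without H1 replicate 2 or without H2 replicate 1 or 2, with adjusted p between 0.055 and 0.0849, and without the 3 replicate 2 libraries together (adjusted p = 0.0847). The second step passed the threshold without H1 replicate 2 (adjusted p = 0.0453) or H2 replicate 1 (adjusted p = 0.039), and the third without H2 replicate 3 (adjusted p = 0.0497) or H3 replicate 1 (adjusted p = 0.0475). With the replicate number as a block in edgeR, both the second and the third step were called (adjusted p = 0.0356 and 0.0365), though the labels give that number no meaning. By H3 the gene had covered 75.0% of its fitted log2 change between H1 and H4. MADS proteins bind DNA as dimers or larger complexes, and the family covers both flower organ and fruit regulators in plants.

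The APETALA2 gene PCP005843 had the smallest change of the 6. Its levels were 157, 128 and 163 CPM at H1, 180, 172 and 169 CPM at H2, 184, 160 and 176 CPM at H3, and 179, 184 and 195 CPM at H4. The H1 and H4 libraries did not overlap, but those of H2, H3 and H4 did. The change from H1 to H4 was 0.32 ± 0.08 on the log2 scale (edgeR adjusted p = 0.011).

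No single step of APETALA2 was called. The step from H1 to H2 was 0.22 ± 0.08 (edgeR adjusted p = 0.159), and the stage means of H2 and H3 differed by less than their spread, at 174 ± 5.61 and 173 ± 12.2 CPM (SD, n = 3). The H1 to H4 call depended on the scaling: with total-count scaling the change was 0.23 (edgeR adjusted p = 0.0615), and the median over all genes then stood at -0.08. With the counts left unscaled the median over all genes was 0.20 and that of APETALA2 0.52, so that its change relative to the median was close to that under TMM.

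The ratio of the MADS to the APETALA2 gene within a library does not depend on the scaling. The log2 ratio of their counts was -3.67 ± 0.09 at H1, -3.43 ± 0.13 at H2, -3.05 ± 0.08 at H3 and -2.87 ± 0.11 at H4 (SD, n = 3). It differed between stages in an exact permutation test (two-sided, p = 6.49e-05, the smallest this design allows, and 0.000195 after Benjamini-Hochberg adjustment over 3 pairs). The MADS gene thus rose by 0.79 more than APETALA2 on the log2 scale, a difference that kept its call in each of the 15 alternative settings.

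**Figure D2:**
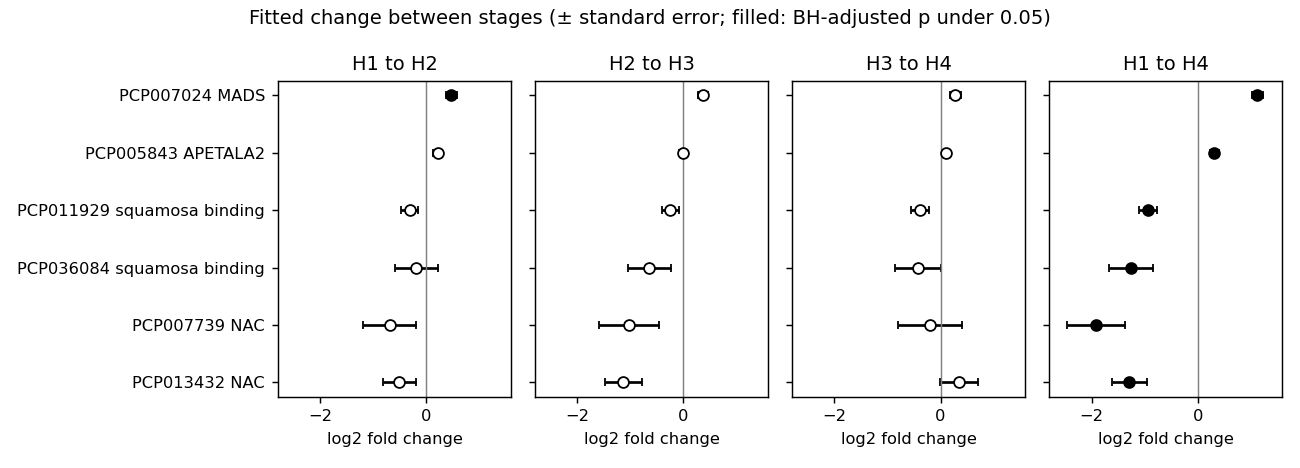
Fitted log2 fold change (horizontal axis, the later over the earlier stage) with its standard error for the 3 steps between neighbouring stages and for H1 to H4, for each of the 6 genes. Filled symbols mark an adjusted p under 0.05: all 6 genes are filled for H1 to H4, the MADS gene also for H1 to H2, and none for H2 to H3 or H3 to H4.

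Squamosa binding proteins are plant-specific factors with a zinc-binding DNA domain, and many of them in other plants are targets of the microRNA miR156. PCP011929 stood at 13.4, 9.85 and 10.4 CPM at H1, at 9.39, 8.94 and 8.77 CPM at H2, at 8.55, 7.60 and 6.68 CPM at H3, and at 5.93, 4.69 and 6.89 CPM at H4. The order of the stage means was the order of harvest, and only the H3 and H4 libraries of neighbouring stages overlapped. The share of all genes without overlap in the earlier steps was not counted. From H1 to H4 the gene fell by 0.94 ± 0.17 on the log2 scale (edgeR adjusted p = 7.39e-04).

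This gene was also called lower from H2 to H4, where the log2 change was -0.63 ± 0.17 (edgeR adjusted p = 0.0132), a call that missed the threshold without H4 replicate 2 (adjusted p = 0.0579) and without the 3 replicate 2 libraries (adjusted p = 0.0617). The call from H1 to H3, -0.56 ± 0.16 with an adjusted p of 0.0437, held in 11 of 24 alternative settings and was lost on leaving out any of 9 libraries, with adjusted p up to 0.168. The adjusted p was 0.0573 without the 3 replicate 2 libraries together. The 9 libraries were all 3 of H2 and of H3, replicates 1 and 3 of H1 and replicate 1 of H4. None of its 3 single steps was called.

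The other squamosa binding protein gene, PCP036084, turned on 1 library. It had 98, 104 and 106 counts at H1, 100, 78 and 90 at H2, 58, 64 and 61 at H3, and 9, 66 and 74 at H4. In CPM these were 12.4, 11.3 and 13.3 at H1, 12.04, 9.82 and 10.5 at H2, 6.98, 6.76 and 7.02 at H3, and 0.971, 6.59 and 7.85 at H4. H1 and H2 were the high stages, and the 2 higher H4 libraries were at the level of H3.

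The 9 counts in H4 replicate 1 have an exact 95% Poisson interval of 4.12 to 17.1 counts, below that of the other H4 libraries (51.0 to 84.0 and 58.1 to 92.9), where the interval covers counting error only. In that library, 24 genes were alone at least 4-fold below both other libraries of their stage, among genes at 5 CPM or more in those, and the other 11 libraries had 25 to 42 such genes each. PCP036084 was the only one of the 6 factors among them.

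With all libraries, PCP036084 fell by 1.25 ± 0.42 on the log2 scale from H1 to H4 (edgeR adjusted p = 0.0353), and no other comparison of it was called. Without H4 replicate 1 the fall was 0.77 (edgeR adjusted p = 0.0013). The step from H2 to H3 was then called at -0.64 (adjusted p = 0.012), as were H1 to H3 at -0.83 (adjusted p = 0.00104) and H2 to H4 at -0.58 (adjusted p = 0.00949), while the step from H3 to H4 stood at 0.06 (adjusted p = 0.855). The H1 to H4 call was lost without H1 replicate 1 (adjusted p = 0.0718) or H1 replicate 3 (adjusted p = 0.0767), and held in 16 of 24 alternative settings. Without the 3 replicate 2 libraries it was -1.53 (adjusted p = 0.0568).

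NAC factors are a large plant family that takes part in ripening, senescence and the formation of secondary walls. Both NAC genes were measured at low counts. PCP007739 had 17, 31 and 7 counts at H1, 16, 5 and 12 at H2, 5, 8 and 4 at H3, and 4, 7 and 5 at H4, or 2.15, 3.36 and 0.876 CPM at H1, 1.93, 0.629 and 1.40 at H2, 0.602, 0.845 and 0.461 at H3, and 0.431, 0.699 and 0.530 at H4. In CPM the H1 libraries all lay above those of H4, by little for H1 replicate 3. That library and H4 replicate 2 both had 7 counts, so that their order rests on the scaling to library size.

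PCP007739 passed the filter only through 2 libraries of H1 and 2 of H2, so that its fall was in part set by how it entered the test. The fitted change from H1 to H4 was -1.92 ± 0.55 on the log2 scale (edgeR adjusted p = 0.016). Without H1 replicate 2, the library with 31 counts, it was -1.42 (adjusted p = 0.0816), without H4 replicate 1 it was -1.78 (adjusted p = 0.0519), and without the 3 replicate 2 libraries it was -1.62 (adjusted p = 0.106). The coefficient of biological variation that edgeR estimated for the gene was 38.3%, the highest of the 6 genes, and that of the MADS gene was 7.34%, the lowest.

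**Figure D3:**
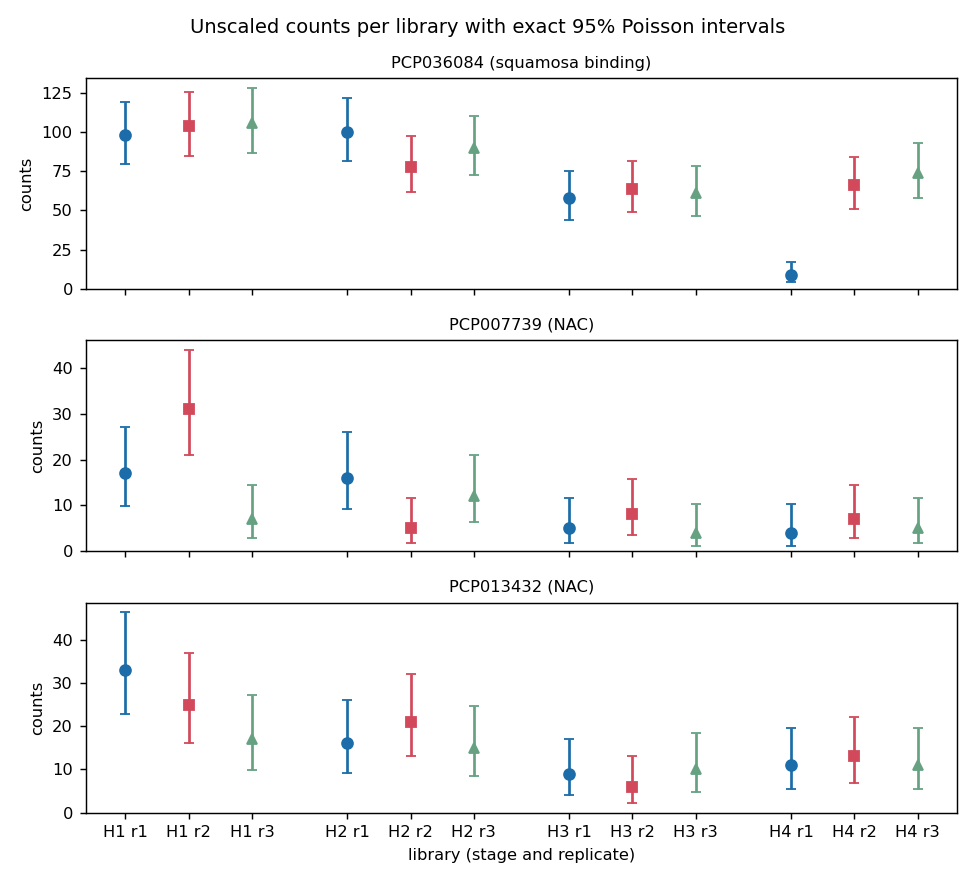
Unscaled counts (vertical axis from 0) with exact 95% Poisson intervals in each of the 12 libraries, for PCP036084 and both NAC genes. PCP036084 has 9 counts in H4 replicate 1 against 66 and 74 in the other H4 libraries, and the NAC genes have at most 13 counts in any library of H3 or H4.

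PCP013432, the second NAC gene, had 33, 25 and 17 counts at H1, 16, 21 and 15 at H2, 9, 6 and 10 at H3, and 11, 13 and 11 at H4. Its levels were 4.16, 2.71 and 2.13 CPM at H1, 1.93, 2.64 and 1.75 at H2, 1.08, 0.633 and 1.15 at H3, and 1.19, 1.30 and 1.17 at H4. With all libraries, it was the only one of the 4 genes that fell whose lowest stage was H3 and not H4, with all H4 libraries above all H3 libraries. From H3 to H4, 39.0% of all genes did not overlap in either direction. Without H4 replicate 1, the H4 mean of PCP036084 was 7.22 CPM, also above its H3 mean of 6.92 CPM. The difference of PCP013432 between H3 and H4, 0.35 ± 0.36 on the log2 scale, was not called (edgeR adjusted p = 0.562).

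The gene fell by 1.29 ± 0.33 from H1 to H4 (edgeR adjusted p = 0.00885) and by 1.64 ± 0.34 from H1 to H3 (edgeR adjusted p = 0.00745). The step from H2 to H3 alone, -1.13 ± 0.35, was not called when adjusted within that comparison (adjusted p = 0.0928). H1 to H4 was called in each of the 23 alternative settings in which the gene was tested, and H1 to H3 in 22 of them, missing the threshold without the 3 replicate 2 libraries (adjusted p = 0.0647).

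Within each of the pairs of a family, no change of the ratio between stages was found. The log2 ratio of PCP007739 to PCP013432 was -0.62 ± 0.81, -0.76 ± 1.06, -0.54 ± 0.83 and -1.09 ± 0.25 at H1, H2, H3 and H4 (SD, n = 3, exact permutation p = 0.821, adjusted 0.834). The SD of this ratio was larger than its mean at H1, H2 and H3 and smaller at H4. The log2 ratio of PCP011929 to PCP036084 was -0.14 ± 0.24, -0.25 ± 0.11, 0.13 ± 0.18 and 0.63 ± 1.67 (exact permutation p = 0.834, adjusted 0.834), with a value of 2.55 in replicate 1 of H4. Without it the ratio at H4 was 0.19 below that at H1, and the adjusted p was 0.155.

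**Figure D4:**
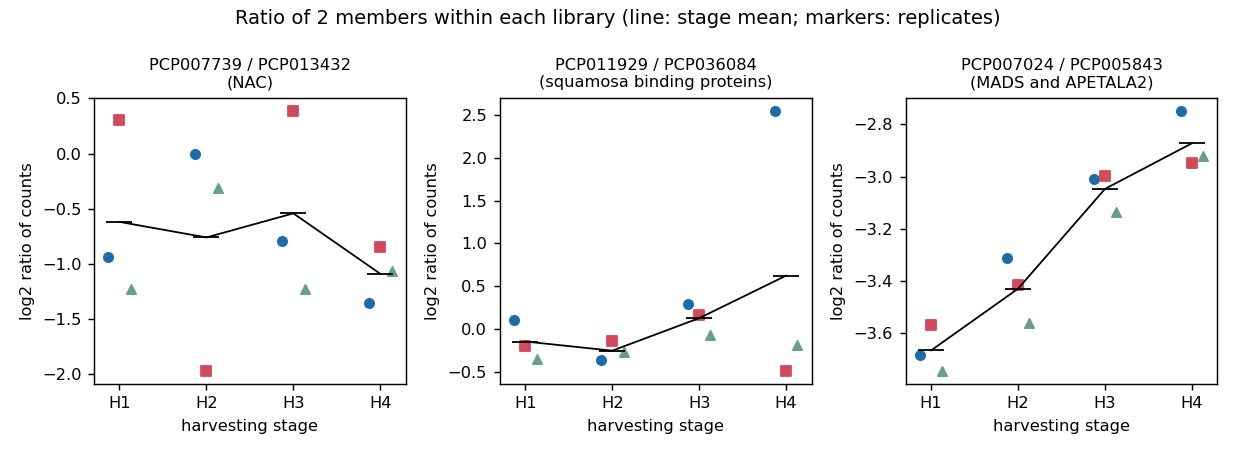
Log2 ratio of the counts of 2 genes within each library (vertical axes differ between panels) at the 4 stages, with 1 marker per replicate and a line through the stage means. The ratio of the MADS to the APETALA2 gene goes from -3.67 at H1 to -2.87 at H4, and in the panel of the squamosa binding proteins 1 H4 library stands at 2.55.

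Read by interval, the 6 genes were called less in the steps than over the whole window, as were all genes tested. Of all genes, 7.10%, 5.34% and 20.5% were called in the 3 steps, and 34.5% from H1 to H4. In a test over all 4 stages, 4 of the 6 were called, where 34.0% of all genes were, and PCP005843 and PCP036084 missed the threshold (edgeR adjusted p = 0.0522 and 0.0966). Without the 3 replicate 2 libraries, only PCP007024 and PCP011929 were called in that test, where 6657 of all 22778 genes tested were called. From H1 to H2, 1 gene was called higher (3.94% of all genes) and none lower (3.17% of all genes). From H2 to H3 none was called, where 2.98% of all genes were called higher and 2.36% lower. At an unadjusted p under 0.05 (edgeR) there were 2 of the 6, and 3847 of all 23155 genes tested. DESeq2 and limma-voom also called 0 of the 6, where they called 1403 of 30700 and 1195 of 23155 genes.

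Over 2 intervals, from H1 to H3, the MADS gene was called higher (6.79% of all genes) and PCP011929 and PCP013432 lower (5.18% of all genes). From H2 to H4, the MADS gene was called higher (14.7% of all genes) and PCP011929 lower (13.3% of all genes). These comparisons share libraries with each other and with H1 to H4.

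The last step, H3 to H4, was the one of the 3 single steps in which the most genes of the fruit were called, with 11.0% higher and 9.51% lower. None of the 6 factors was called there with edgeR and all libraries, in the model without a term for the replicate number. With 6 genes, this count is not far from these shares. Without H2 replicate 3 or H3 replicate 1, edgeR called the MADS gene (adjusted p = 0.0497 and 0.0475), as it did with the replicate number as a block (adjusted p = 0.0365). At an unadjusted p under 0.05 (edgeR) there were 2 of the 6, and 7563 of all 23155 genes tested. DESeq2 called 0 of the 6, and 4688 of 30700 genes. With limma-voom 1 of the 6 was called, the MADS gene, and 4967 of 23155 genes. The libraries of H3 and H4 did not overlap in 2 of the 6, PCP007024 and PCP013432, both higher at H4, where 39.0% of all genes did not overlap. Approximate 95% intervals of the log2 change at this step ran from 0.06 to 0.51 for PCP007024, from -0.09 to 0.30 for PCP005843 and from -0.77 to 0.00 for PCP011929. The last of these just includes 0 although its unadjusted p was 0.0412 (edgeR), since the intervals use fewer degrees of freedom than the test. They were wider for PCP036084 (-1.42 to 0.57), PCP007739 (-1.60 to 1.21) and PCP013432 (-0.49 to 1.19), so that a change of 2-fold was within the interval for each of the latter.

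Whether the last interval differed from the first, which was of the same length, was tested directly. None of the 6 genes was called as different (10.6% of all genes were, edgeR). With 6 genes, this count is near that share. None of the 6 had an unadjusted p under 0.05, where 5559 of all 23155 genes tested had. DESeq2 and limma-voom called 0 of the 6, where they called 2713 of 30700 and 2483 of 23155 genes. The difference, last minus first, was -0.19 (95% interval -0.52 to 0.14) for the MADS gene, -0.12 (-0.39 to 0.16) for APETALA2 and -0.07 (-0.61 to 0.46) for PCP011929. For PCP013432 it was 0.86 (-0.26 to 1.97), for PCP007739 0.49 (-1.36 to 2.34) and for PCP036084 -0.24 (-1.59 to 1.12). A 2-fold difference lay within the interval for each of the latter.

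**Figure D5:**
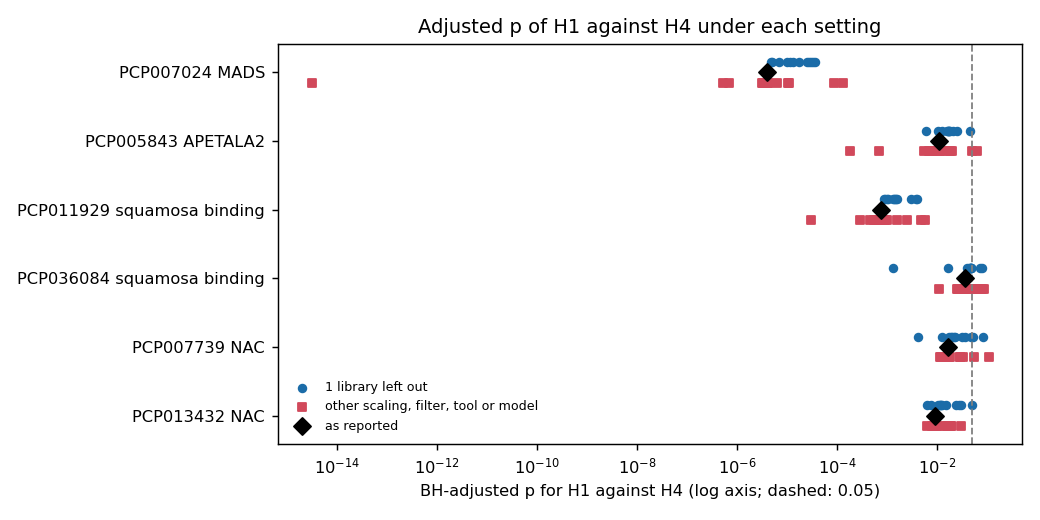
Benjamini-Hochberg adjusted p for H1 against H4 (horizontal log axis, dashed line at 0.05) for each gene as reported (diamond), with 1 library left out (circles) and under the other settings (squares). PCP007024 and PCP011929 stay below 0.05 in all 24 settings and PCP013432 in all 23, while PCP005843, PCP036084 and PCP007739 cross the line in 2, 8 and 4 settings.

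The study named 10 other transcriptional regulators, of which 8 passed the filter. Between H1 and H4, 6 of them were called higher (18.1% of all genes) and 2 lower (16.4% of all genes), with a median log2 change of 1.14, where the median over all genes was 0.00. PCP027843, described below, passed the filter only through libraries of H4 and is included in these counts and in the median. The regulators with the largest changes were ethylene response factors, which bind promoters of ethylene-regulated genes. ERF2 (PCP002056) had 13, 9 and 16 counts at H1 and 241, 364 and 398 at H4, and was 4.51 ± 0.23 higher on the log2 scale (edgeR adjusted p = 3.18e-08).

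The ERF2 gene had also been high at H2, with 155 to 171 counts, and low at H3, with 15 to 23 counts, a course that none of the 6 factors had. PCP027843, of the AP2/ERF group, had no count at H1 and 17, 24 and 22 counts at H4, and it reached 1 CPM only in the H4 libraries, so that it could enter the test only by being high there. PCP014930 and PCP011831, of the same families, were 2.27 ± 0.37 (edgeR adjusted p = 4.40e-04) and 1.40 ± 0.26 (edgeR adjusted p = 0.00119) higher. PCP014930 reached 1 CPM in no library of H1. At H3 to H4, 4 of these 8 regulators were called higher (11.0% of all genes) and 1 lower (9.51% of all genes). PCP027843 is among the 4, so that this count is in part set by the filter.

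Of 14 genes of ethylene and softening that the study named, 13 were tested, and 10 were called higher (18.1% of all genes) and 3 lower (16.4% of all genes) from H1 to H4, with a median log2 change of 2.30, where that over all genes was 0.00. These counts and the median include genes, given below, whose direction was at least in part set by the filter. PG (PCP006771), a polygalacturonase that cuts pectin, went from 5, 20 and 6 counts to 7120, 8784 and 8260 (log2 change 9.40 ± 0.23, edgeR adjusted p = 1.81e-10). A pectin esterase (PCP011895) and an ACS (PCP013122), the enzyme that makes the precursor of ethylene, had no count at H1 and were at least 23.0-fold and 13.5-fold higher at H4 against a floor of 3 counts per library. The pectin esterase reached 1 CPM only in the 3 H4 libraries and the ACS in these and 1 library of H3, so that their direction was set by how they entered the test. Some of the others called higher also reached it in no library of H1. The 3 called lower reached it in no library of H4, so that the direction of all these was in part set in the same way. A pectate lyase (PCP016914) had 220, 116 and 0 counts at H1 and none at H4. At H3 to H4, 5 of the 13 were called higher (11.0% of all genes) and none lower (9.51% of all genes). The pectin esterase and the ACS are among the 5. These lists were also picked by the study, in part on the same libraries.

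The course of each factor was set beside those of the listed genes after the mean of each gene was subtracted from its log2(CPM + 1), and the distance was the root of the mean squared difference over the 12 libraries. Among the listed genes, the nearest to the MADS gene was PCP012166, annotated as an IAA-like auxin responsive factor, at 0.14, the rank 39 among the 23154 other genes tested. Its means were 86.4, 118, 154 and 158 CPM, which level off at H4 (log2 change from H3 to H4 0.04, edgeR adjusted p = 0.71), where those of the MADS gene were 11.7, 16.1, 20.9 and 25.4 CPM. APETALA2 was nearest to PCP016523, a xyloglucan endotransglucosylase/hydrolase, which remodels hemicellulose, at 0.12 (rank 686).

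PCP011929 and PCP013432 were both nearest to PCP011926, a COBRA-like gene, at 0.20 and 0.33 (ranks 226 and 484). COBRA proteins are known for a role in the cell wall, though the study lists this gene with the transcription factors. Its means of 94.3, 91.8, 71.6 and 59.3 CPM fell from H2 on. PCP007739 and PCP036084 were nearest to PCP039813, an expansin-like gene with 3.11, 1.98, 1.56 and 0.831 CPM, at 0.29 and 0.53 (ranks 54 and 260), and expansins loosen the cell wall. The distances of PCP036084 include H4 replicate 1, at 0.971 CPM, and were not taken without it. Without that library its log2 change from H3 to H4 was 0.06, where that of PCP039813 with all libraries was -0.90. The smallest distances among the 6 were those of PCP011929 to PCP013432, at 0.298, and of PCP007024 to PCP005843, at 0.302. Many other genes were nearer. Seen from PCP011929, PCP013432 had rank 3504, and in the other direction the rank was 198. Seen from PCP007024, PCP005843 had rank 1883, and in the other direction the rank was 15376.

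The gene that the study used as a reference in its candidate gene assays, PCP030439, had means of 43.5 ± 1.95, 40.9 ± 1.14, 41.9 ± 1.76 and 37.9 ± 2.30 CPM (SD, n = 3). It fell by 0.20 ± 0.06 on the log2 scale from H1 to H4 (edgeR adjusted p = 0.03), where the APETALA2 gene had changed by 0.32.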

How the data were processed

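Flesh RNA of 3 biological replicates at each of 4 stages gave 12 RNA-seq libraries, which do not keep the strand per the labels, so that antisense transcripts cannot be told apart. The authors trimmed the reads, used HISAT2 for alignment to a pear genome, StringTie for quantification and DESeq2 for testing. Versions, the genome build, the step that gave counts and the treatment of reads shared by near-identical genes are not given in the sources used here, so family members may share reads. The library kit, sequencer and read length differ between the labels and the methods. The deposited table holds raw counts per gene and library, although it is named for FPKM. It also holds 4 stage columns, read as a signal, which the authors made as the mean of the 3 libraries (largest difference 3.33e-05) and which were not analysed further. No library column was left out, and the labels give no batch.

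The quasi-likelihood test of edgeR 4.0.16 in R 4.3.3 was applied to the counts (TMM scaling, 1 model over the 12 libraries, only genes reaching 1 CPM in 3 or more of them, Benjamini-Hochberg adjustment over 23155 genes within each comparison, threshold 0.05). The design had also foreseen FPKM values, and the count test was used because the values are counts. Standard errors are the size of the log2 change over the square root of F and are approximate, and the 95% intervals use 8 residual degrees of freedom. Library totals of 7776419 to 10675582 counts set the precision, and Poisson intervals and the floor of 3 counts cover counting error only. Ratios used counts with 0.5 added and an exact permutation test over the 12 libraries. Alternatives were other filters, scalings, DESeq2 1.42.0, limma 3.58.1, 6 libraries, a joint adjustment, a replicate block, leaving out each library and, chosen after seeing the data, robust dispersion and 9 libraries, without replicate 2 of H1, H3 and H4. The code was tested on simulated data. Python 3.11.15 was used for tables (pandas 2.3.3), exact tests (scipy 1.17.1), arrays (numpy 2.4.6) and figures (matplotlib 3.10.9).

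The 6 genes and the gene lists were chosen with earlier results of these data known. The genes named are these 6, the reference gene, the listed gene nearest to each of the 6 and the 4 genes of each list with the largest called change from H1 to H4. No sequence or coordinates are printed, since the gene models were not matched to a reference here.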

Additional observations from a re-analysis of the deposited data

How the results depend on the processing

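Changes of single genes from H1 to H4 were counted apart. Of 836 values for single genes in the other comparisons under other settings, 775 kept their direction and their side of the threshold. A further 25 passed it only under the alternative, 22 no longer passed it and 14 changed sign, none of the latter being called in either case. From H1 to H4, the call held in 22 of 24 settings for PCP005843, 16 of 24 for PCP036084 and 18 of 22 for PCP007739. It held in every setting for the other genes. For the last against the first interval, none of the 6 genes was called in any setting. Over all stages the number of genes called was 2 of the 4 genes tested with at least 5 CPM in 3 libraries (all genes: 7203 of 17830) and 3 to 5 with a library left out (all genes: 6307 of 23054 to 8270 of 23016). From H1 to H2 it was 0 with 6 libraries (all genes: 1069 of 22337) and 0 to 1 with a library left out (all genes: 940 of 23028 to 1589 of 23050). From H2 to H3 it was 1 with the filter of 5 CPM (all genes: 1222 of 17830), with no scaling (all genes: 796 of 23155) and with 6 libraries (all genes: 1535 of 22184). It was 2 with adjustment over 6 comparisons (all genes: 1900 of 23155), and 0 to 1 with a library left out (all genes: 687 of 23028 to 1508 of 23016). From H3 to H4 it was 1 with no scaling (all genes: 3903 of 23155) and with limma-voom (all genes: 4967 of 23155), and 0 to 1 with a library left out (all genes: 3242 of 23054 to 5484 of 23016). From H1 to H3 it was 2 to 4 over the settings other than the 9 libraries (all genes: 1938 to 3113 called, of 17830 to 30839 tested). With a library left out it was 1 to 3 from H2 to H4 (all genes: 5095 of 23054 to 7174 of 23016). It was then 5 to 6 from H1 to H4 (all genes: 6607 of 23054 to 8111 of 23016). With 6 libraries it was 3 of the 5 tested from H1 to H4 (all genes: 6653 of 22193). Without replicate 2 of H1, H3 and H4 together, 2 of the 6 genes were called over all stages, 0 from H1 to H2, 1 from H1 to H3, 1 from H2 to H4 and 4 from H1 to H4, with fewer libraries in the fit. Of all 22778 genes tested then, 6657 were called over all stages, 1382 from H1 to H2 and 1946 from H1 to H3. The counts were 5987 from H2 to H4 and 7082 from H1 to H4. For PCP036084 from H1 to H4 the log2 change was -1.05 with no scaling (adjusted p = 0.0703), -1.26 with DESeq2 (0.0568), -1.28 with 6 libraries (0.0867), -1.25 both with adjustment over 6 comparisons (0.059) and with robust dispersion (0.0779), -1.53 without these 3 libraries (0.0568), and -1.69 to -0.77 with a library left out. For PCP007739 it was -1.73 with limma-voom (0.0537), -1.62 without these 3 libraries (0.106) and -2.30 to -1.42 with a library left out. For PCP005843 it was 0.23 with total-count scaling (0.0615), 0.29 with 6 libraries (0.0503) and 0.21 to 0.38 with a library left out. Changes of sign were found for PCP005843 from H2 to H3 (0.082 with no scaling, 0.05 without these 3 libraries, -0.052 to 0.048 with a library left out), for the last step of PCP036084 (0.06 without H4 replicate 1, and down to -0.855 with another library left out) and of PCP007739 (-0.401 to 0.065 with a library left out), and, last against first interval, for PCP011929 (0.055 with no scaling, 0.156 without these 3 libraries, -0.219 to 0.064 with a library left out), PCP036084 (-0.664 to 0.251 with a library left out), PCP007739 (-0.011 to 0.862 with a library left out) and PCP005843 (0.018 with no scaling). The ratio of the squamosa binding proteins changed sign without H4 replicate 1 (-0.19), with a range of -0.19 to 1.32 over the libraries left out. The causes were not tested.

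Replicate numbers were not treated as pairing the samples, since the labels give them no meaning and not every same-numbered pair deviated together. Deviations from the stage means correlated at -0.041 to 0.243 between same-numbered libraries and at -0.173 to 0.086 between others. Replicate 2 of H1, H3 and H4 correlated at 0.243, 0.118 and 0.194 with each other, and replicate 1 of H1 and H3 at 0.113, all above the highest value between others, which is a hint from the data and not from the design. With the replicate number as a block, 1 of the 6 genes was called from H2 to H3 and 1 from H3 to H4, in both cases PCP007024 (adjusted p = 0.0356 and 0.0365), and the counts of the other comparisons did not change. Low counts limit both NAC genes, neither of which reached 5 CPM in any library.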
